A study of Mus musculus with 10 samples.

Results

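The 39 protein-coding genes of the mouse Hoxa, Hoxb, Hoxc and Hoxd clusters were followed in the knees of wild-type and Mir324-null mice. They were taken by symbol from a table of 35705 genes, by a rule that used no values, although earlier results of these data were known. The study used 10 mice, of which 5 were wild-type and 5 were null for the microRNA gene Mir324, and neither group was treated. The cap of cartilage on the medial side of the knee was dissected from every mouse and made into a library of its own, labelled as articular cartilage and chondrocyte. Strain, age, sex and litter were not stated, nor whether the gene was lost in every tissue. The genotype could not be checked here, because microRNAs were not analysed. In these bulk libraries, fewer cells of a type and less RNA per cell cannot be told apart.

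Hox genes encode homeodomain transcription factors, and their order along each cluster follows the order in which they are used along the body and limb axes. Genes of the posterior end pattern the limbs and stay active in the connective tissue and skeleton of the adult limb, while many Hoxa and Hoxb genes act in blood stem and progenitor cells. Hoxa9 and Hoxa10 are used in the limb as well as in the marrow. On this basis 12 members were called limb-type posterior (Hoxa11, Hoxa13, Hoxc9 to Hoxc13 and Hoxd9 to Hoxd13). A further 18 were called marrow-type (the Hoxa genes up to Hoxa10 and the Hoxb genes up to Hoxb9), and 9 fell in neither class (Hoxb13, Hoxc4, Hoxc5, Hoxc6, Hoxc8, Hoxd1, Hoxd3, Hoxd4 and Hoxd8).

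The clusters bear directly on microRNA biology, because the miR-10 and miR-196 families are encoded between and within Hox genes and are known to repress Hox transcripts. The mature sequences are shown 5′ to 3′ with the seed (bases 2 to 8), the stretch that pairs with a target, in capitals, so that the seed lost in the null mice can be set beside those of the cluster microRNAs. They are from RefSeq (GRCm38.p6).
miR-324-5p: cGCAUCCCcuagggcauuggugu
miR-324-3p: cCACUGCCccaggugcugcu
miR-10a-5p: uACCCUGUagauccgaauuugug
miR-10b-5p: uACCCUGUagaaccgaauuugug
miR-196a-5p: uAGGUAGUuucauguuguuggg
miR-196b-5p: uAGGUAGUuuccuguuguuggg

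The miR-324 arms have seeds of their own, while miR-10a and miR-10b share a seed, as do miR-196a and miR-196b. Mir324 itself lies at chr11:70012043-70012131, 26.2 Mb from the Hoxb cluster on the same chromosome. Mir10a lies between Hoxb5 and Hoxb4, Mir10b within the spans of Hoxd3 and Hoxd4, Mir196a-1 between Hoxb13 and Hoxb9, Mir196a-2 between Hoxc10 and Hoxc9, and Mir196b inside Hoxa9. Letters complementary to each seed were sought on the sense strand of the longest annotated 3′ UTR of every protein-coding gene, which all 39 members have. A match describes letters and does not show binding.

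For miR-324-5p the letters sought were GGGATGC, and Hoxa9 was the only member that held them. Its match, at chr6:52223541-52223563 on the minus strand, continues with the A that makes it an 8mer. Among tested genes with a 3′ UTR, 1070 of 12592, or 8.50%, held these letters, as did 7.39% of all genes with a 3′ UTR. For miR-324-3p the letters were GGCAGTG, and 3 of the 39 members (Hoxb9, Hoxc11 and Hoxc13) held them, against 12.7% of all genes with a 3′ UTR. None of the 3 reached the level set for testing, so the count among tested members was 0 of 15, against 15.4% of tested genes. The matches are shown with their flanking bases, the complement of the seed in capitals.
Hoxa9, miR-324-5p: gagagatagttctccGGGATGCa
Hoxb9, miR-324-3p: ttttgtgatttctttGGCAGTGa
Hoxc11, miR-324-3p: cctaaccttttcccaGGCAGTGc
Hoxc13, miR-324-3p: taatccttagggcctGGCAGTGt

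Matches to the seeds encoded in the clusters were sought in the same way. The letters for miR-196 were in a larger share of the members than of all genes, while those for miR-10 were not. The letters ACTACCT, for miR-196, were in 9 of the 39 members, against 6.10% of all genes with a 3′ UTR, and in 4 of the 15 tested (Hoxa5, Hoxa7, Hoxa9 and Hoxc8), against 6.69% of tested genes. Hoxa7 alone held 4 matches, all of them 8mers, between positions 310 and 506 of its 3′ UTR. The letters ACAGGGT, for miR-10, were in 4 of the 39 members, against 12.5% of all such genes, and in 2 of the 15 tested (Hoxa3 and Hoxb3), against 14.7% of tested genes. The matches of Hoxa7 are shown together because no other member held as many, and are followed by the 8mers of Hoxa5, Hoxc8, Hoxa3 and Hoxb3.
Hoxa7, 3′ UTR positions 310 to 316, miR-196: aggcacagccaaaatACTACCTa
Hoxa7, 3′ UTR positions 347 to 353, miR-196: gagaggcactcccaaACTACCTa
Hoxa7, 3′ UTR positions 479 to 485, miR-196: caaaccatgatcaatACTACCTa
Hoxa7, 3′ UTR positions 500 to 506, miR-196: tactactagccctaaACTACCTa
Hoxa5, miR-196: gatatttttattcaaACTACCTa
Hoxc8, miR-196: ataaatctttaacatACTACCTa
Hoxa3, miR-10: actctttgataagaaACAGGGTa
Hoxb3, miR-10: tgacttaacgtgaaaACAGGGTa

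Levels are given as TPM (transcripts per 1000000), a share of each library's total after allowing for transcript length, summed over the transcripts of a gene. All 4 clusters were represented, and the members seen at the highest levels were Hoxa10, Hoxa9, Hoxa7, Hoxc10, Hoxc6 and Hoxd8. The mean of Hoxa10 over the 10 libraries was 7.27 TPM, that of Hoxa9 was 5.20 TPM, and that of Hoxa7 was 4.21 TPM. Hoxc10 followed at 4.17 TPM, Hoxc6 at 3.84 TPM and Hoxd8 at 3.66 TPM. These are modest levels for this tissue, since 33.9% of the genes tested had a mean below that of Hoxa10, the highest member.

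The mean reached 1 TPM, the level set for testing, in 15 members. Cluster A, spanning 105 kb of chromosome 6, contributed 6 of its 11 genes to these. Cluster B (174 kb, chromosome 11) contributed 3 of 10, cluster C (116 kb, chromosome 15) 4 of 9, and cluster D (96.8 kb, chromosome 2) 2 of 9. By class, 4 of the 12 limb-type posterior genes were above that level, as were 8 of the 18 marrow-type genes and 3 of the 9 others.

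Along the paralogue numbers the level was concentrated in the middle. Paralogues 4 to 8 (15 genes) held on average 43.6% of the summed Hox TPM and paralogues 9 and 10 (7 genes) held 41.2%, so the level per gene was higher in the latter. Paralogues 1 to 3 (8 genes) held 8.82% and paralogues 11 to 13 (9 genes) held 6.32%. Toward the posterior end of clusters C and D the levels were lower. The means were 4.17 TPM for Hoxc10 and 0.458 TPM for Hoxc11, then 0.0175 TPM for Hoxc12 and 0.0251 TPM for Hoxc13. In cluster D they were 1.91 TPM for Hoxd9, 0.442 TPM for Hoxd10 and 0.119 TPM for Hoxd11.

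**Figure D1:**
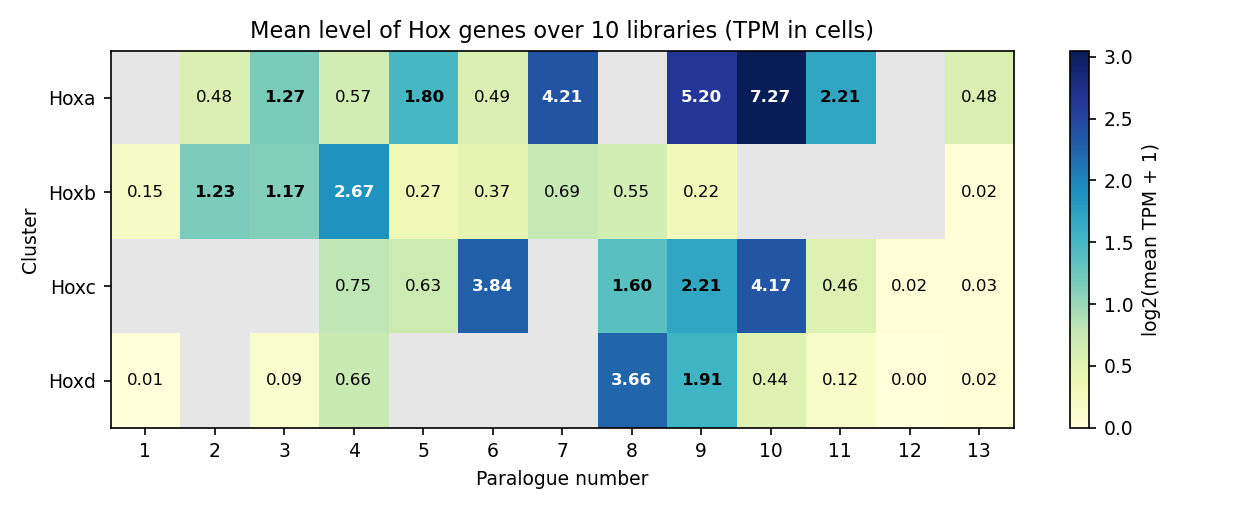
Mean TPM over the 10 libraries for the Hox genes, with clusters in rows and paralogue numbers in columns. Colour gives log2(mean TPM + 1), bold numbers mark the 15 genes whose mean reached 1 TPM, and grey cells have no gene or no value shown. The darkest cells run from Hoxa7 to Hoxa10, with Hoxc6, Hoxc10 and Hoxd8 beside them.

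The other 24 members had means from 0 to 0.748 TPM, the last for Hoxc4, and no single value above 2.09 TPM. Among them 14 were above 0 in every library. The genes that pattern the hands and feet, the distal end of the limb, were low: Hoxa13 had a mean of 0.480 TPM (0.121 to 1.19), Hoxd13 one of 0.0162 TPM (0 to 0.0348), and Hoxd12 was listed at 0 in all 10 libraries. Hoxd11, which with Hoxa11 patterns the forearm and lower leg, ranged from 0.0486 to 0.288 TPM, well under Hoxa11. Coding transcripts held 0% of the Hoxd11 TPM and 59.9% of the Hoxa11 TPM.

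Of the anterior end, a member that did not reach testing was Hoxa2, a gene of the branchial arches (mean 0.479 TPM, 0.0493 to 1.39). In cluster B, Hoxb7 had a mean of 0.694 TPM (0.371 to 1.07) and Hoxb6 one of 0.374 TPM (0.208 to 0.615). Hoxb9, which holds an 8mer match for miR-324-3p, had 0.306 ± 0.101 TPM in wild-type knees and 0.134 ± 0.0720 TPM in null knees (SD, n = 5 each), and was not tested. The null mean was the lower in 16 of these 24 members and the higher in 7. In a fit without the filter on low values, 57.6% of 23980 genes had a log2 estimate below 0.

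Of the tested limb-type posterior genes, Hoxa11 (ENSMUSG00000038210, chr6:52242106-52245810), a gene of the lower leg and forearm, was at 4.87, 2.80, 1.88, 2.53 and 1.81 TPM in wild-type replicates 1 to 5. In null replicates 1 to 5 it was at 1.02, 1.91, 2.36, 1.64 and 1.27 TPM. Wild-type replicate 1 stood well above the rest, and the genotypes overlapped in the span from 1.81 to 2.36 TPM.

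Hoxc10 (ENSMUSG00000022484, chr15:102966796-102971893), a gene of the hindlimb level, was at 8.99, 4.45, 2.76, 5.80 and 3.47 TPM in wild-type knees and at 2.96, 4.11, 3.34, 3.41 and 2.38 TPM in null knees. Wild-type replicates 1, 4 and 2 were the highest of the 10, in that order, and wild-type replicate 3 lay among the null values. Its neighbour Hoxc9 (ENSMUSG00000036139, chr15:102976439-102985099) was at 5.22, 1.65, 2.83, 2.44 and 1.84 TPM in wild-type knees and 1.15, 1.41, 2.55, 1.37 and 1.69 TPM in null knees. Hoxd9 (ENSMUSG00000043342, chr2:74697727-74700208), a gene of the upper limb segment, was at 3.84, 2.0, 1.22, 2.57 and 1.99 TPM in wild-type knees and 1.05, 2.05, 1.81, 1.12 and 1.41 TPM in null knees. For both, wild-type replicate 1 was again the highest and at least 1 wild-type mouse lay inside the null range.

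Among the marrow-type Hoxa genes, Hoxa10 (ENSMUSG00000000938, chr6:52231197-52240854), active in blood progenitors and in the femur, was at 14.9, 7.64, 6.14, 8.66 and 6.80 TPM in wild-type mice. In null mice it was at 4.96, 5.96, 7.49, 4.49 and 5.71 TPM. Of the null mice, 4 were below the lowest wild-type mouse, and null replicate 3 was inside the wild-type range. Hoxa9 (ENSMUSG00000038227, chr6:52223100-52231089), a driver of blood stem cell growth and of leukaemia, was at 8.12, 4.85, 5.16, 4.25 and 5.77 TPM in wild-type knees and 4.28, 7.0, 6.04, 3.18 and 3.34 TPM in null knees. The only member with a miR-324-5p match thus had null replicates 2 and 3 above all wild-type mice but replicate 1.

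Hoxa5 (ENSMUSG00000038253, chr6:52201754-52204587), which acts in the lung and the shoulder girdle, was at 4.34, 2.04, 1.32, 2.16 and 1.69 TPM in wild-type knees and 1.22, 1.67, 1.38, 1.30 and 0.836 TPM in null knees. Hoxa7 (ENSMUSG00000038236, chr6:52214491-52221854), a gene of the thoracic level also seen in leukaemia, was at 9.25, 4.49, 2.82, 3.87 and 4.44 TPM in wild-type knees and 2.95, 4.39, 3.96, 3.08 and 2.84 TPM in null knees. Hoxa3 (ENSMUSG00000079560, chr6:52169062-52213336), a gene of the thymus and parathyroid, was at 2.98, 1.14, 0.709, 1.20 and 0.939 TPM in wild-type knees and 0.997, 1.74, 1.39, 0.813 and 0.756 TPM in null knees. In all 3 the value of wild-type replicate 1 was above every other library by a wide margin, and the remaining wild-type mice overlapped the null mice.

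Among the marrow-type Hoxb genes, Hoxb4 (ENSMUSG00000038692, chr11:96318267-96321638), known for expanding blood stem cells, was at 4.87, 2.15, 2.67, 2.03 and 2.68 TPM in wild-type knees and 3.06, 3.17, 2.54, 1.81 and 1.69 TPM in null knees. Hoxb3 (ENSMUSG00000048763, chr11:96323326-96347930) was at 2.83, 1.53, 1.43, 0.605 and 0.892 TPM in wild-type knees and 1.05, 1.25, 1.09, 0.598 and 0.424 TPM in null knees. Hoxb2 (ENSMUSG00000075588, chr11:96350525-96354012), a hindbrain gene, was at 1.65, 1.77, 1.24, 1.30 and 0.950 TPM in wild-type knees and 1.14, 1.57, 0.641, 1.21 and 0.832 TPM in null knees. The genotypes overlapped broadly in these genes, and Hoxb2 was the only tested member whose highest library, wild-type replicate 2, was not wild-type replicate 1.

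The remaining tested members lie in the middle of clusters C and D and are genes of the thoracic level. Hoxc6 (ENSMUSG00000001661, chr15:102998257-103011881) was at 8.51, 2.85, 2.81, 5.94 and 2.85 TPM in wild-type knees and 2.63, 4.24, 4.58, 2.18 and 1.76 TPM in null knees. Hoxc8 (ENSMUSG00000001657, chr15:102990607-102994111) was at 3.07, 1.65, 1.23, 2.81 and 1.09 TPM in wild-type knees and 0.854, 1.27, 1.87, 1.15 and 1.01 TPM in null knees. Hoxd8 (ENSMUSG00000027102, chr2:74704615-74707933) was at 6.42, 3.67, 4.25, 4.40 and 2.53 TPM in wild-type knees and 2.75, 3.69, 3.37, 2.61 and 2.87 TPM in null knees. In these genes wild-type replicates 1 and 4 were the highest libraries. The other wild-type mice lay within the null range, save for Hoxd8, where replicate 3 was above it and replicate 5 below.

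**Figure D2:**
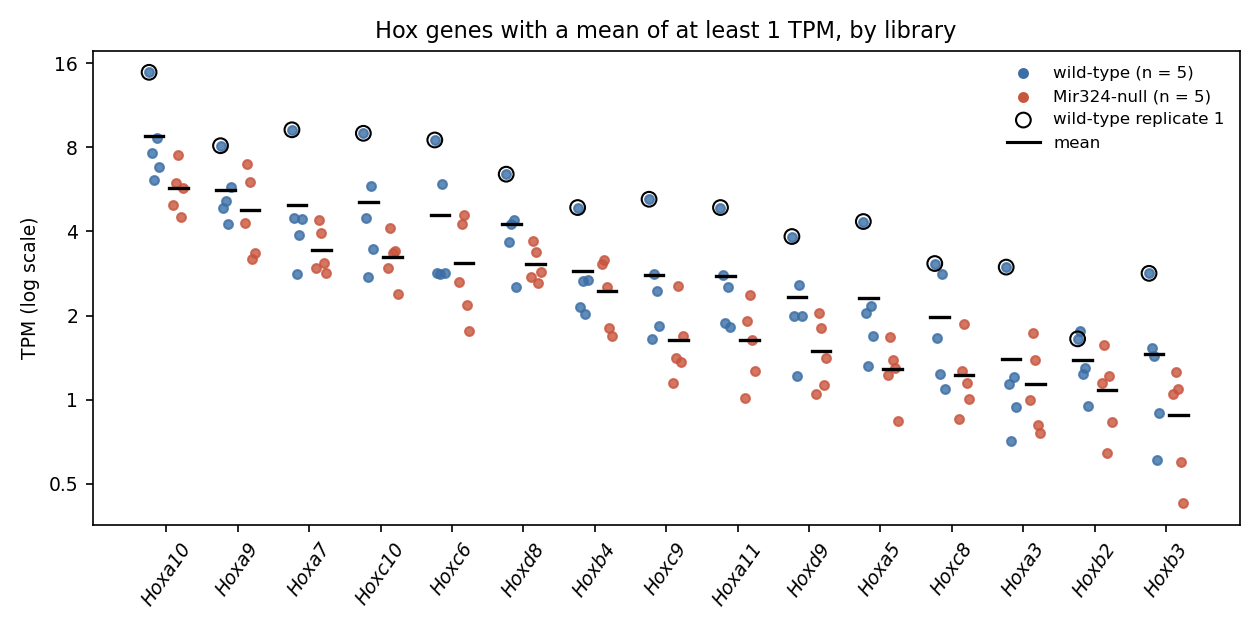
TPM of the 15 Hox genes tested, in each library on a log axis, with a point per mouse, blue for wild-type and red for Mir324-null (n = 5 each) and bars for the group means. Ringed points are wild-type replicate 1, the highest library for 14 of the 15 genes, and the 2 colours overlap for every gene.

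Wild-type replicate 1 was the highest of the 10 libraries for 14 of the 15 tested members. Over all genes tested it was the highest for 33.6%. The lowest library was null replicate 5 for 5 of the tested members and null replicate 1 for 4. Over all genes the shares lowest in these libraries were 29.8% and 11.9%.

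The question put to the genotypes was whether the Hox genes differed between wild-type and Mir324-null knees. No member passed the test: 0 of 15 had an adjusted p under 0.05 (limma on log2(TPM + 1), Benjamini-Hochberg over all 13841 genes tested), the same share, 0.0%, as among all genes. The smallest adjusted p of a member was 0.392 in that limma fit. At an unadjusted p under 0.05, 3 of 15 were lower in null mice (Hoxa5, Hoxa10 and Hoxa11) and 0 were higher, where 7.3% of all genes tested were lower and 4.28% higher. No member separated the genotypes without overlap, as 1.06% of all genes did with the null mice lower and 0.881% with the null mice higher. With median ratio scaling Hoxa5, Hoxa10 and Hoxa11 were again the members with such a p, where 6.42% of all genes were lower.

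Hoxa10 had the smallest unadjusted limma p and Hoxa5 the smallest exact permutation p. The mean of Hoxa10 was 8.82 ± 3.51 TPM in wild-type knees and 5.72 ± 1.15 TPM in null knees (SD, n = 5 each), a difference of -0.50 on the log2(TPM + 1) scale (SE 0.209). Its p was 0.0345 and its adjusted p 0.392 in limma, and the two-sided exact permutation test over all splits of the 10 mice gave p = 0.0397 and an adjusted p of 0.436. Without wild-type replicate 1 the difference was -0.31 and the limma p was 0.0651.

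Hoxa5 was at 2.31 ± 1.18 TPM in wild-type knees and 1.28 ± 0.303 TPM in null knees, a difference of -0.48 (SE 0.218, limma p = 0.0475, adjusted p = 0.427), and the exact permutation p was 0.0317. Hoxa11 was at 2.78 ± 1.24 and 1.64 ± 0.530 TPM, a difference of -0.49 (SE 0.223, limma p = 0.0496, adjusted p = 0.429), and the exact permutation p was 0.0556. Without wild-type replicate 1 the limma p rose to 0.10 for Hoxa5 and to 0.117 for Hoxa11. None of the 15 members then had an unadjusted p under 0.05, where 4.48% of all genes were lower with such a p. The same count of 0 was found on leaving out wild-type replicate 4 or null replicate 1, 4 or 5 alone. In these fits 5.51%, 4.52%, 4.98% and 4.83% of all genes were lower.

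The estimates of all 15 tested members were below 0, where 60.0% of all genes were. Their median was -0.38 on the log2 scale, with a range from -0.50 to -0.12, against -0.045 for all genes tested. Without wild-type replicate 1 the median was -0.20 against -0.016, and 13 of the 15 were below 0, against 53.9% of all genes. Hoxa3 and Hoxb4 then turned to differences of 0.084 and 0.011. When libraries were scaled by the median ratio, which centres all genes (median 0.0033, with 49.3% below 0), the members' median was -0.35 and all 15 remained below 0.

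The medians by class were -0.46 for the 4 limb-type posterior genes, -0.28 for the 8 marrow-type genes and -0.38 for the 3 others. Without wild-type replicate 1 they were -0.27, -0.15 and -0.20. Whether the classes differed was not tested. Estimates of the other tested members ran from -0.48 for Hoxc9 (exact permutation p = 0.0794) and -0.45 for Hoxc10 (p = 0.127) to -0.15 for Hoxb4 (p = 0.524) and -0.12 for Hoxa3 (p = 0.706). Hoxa9, with its miR-324-5p match, was at 5.63 ± 1.5 TPM in wild-type knees and 4.77 ± 1.69 TPM in null knees, a difference of -0.22 (SE 0.213, limma adjusted p = 0.769, exact permutation p = 0.373).

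**Figure D3:**
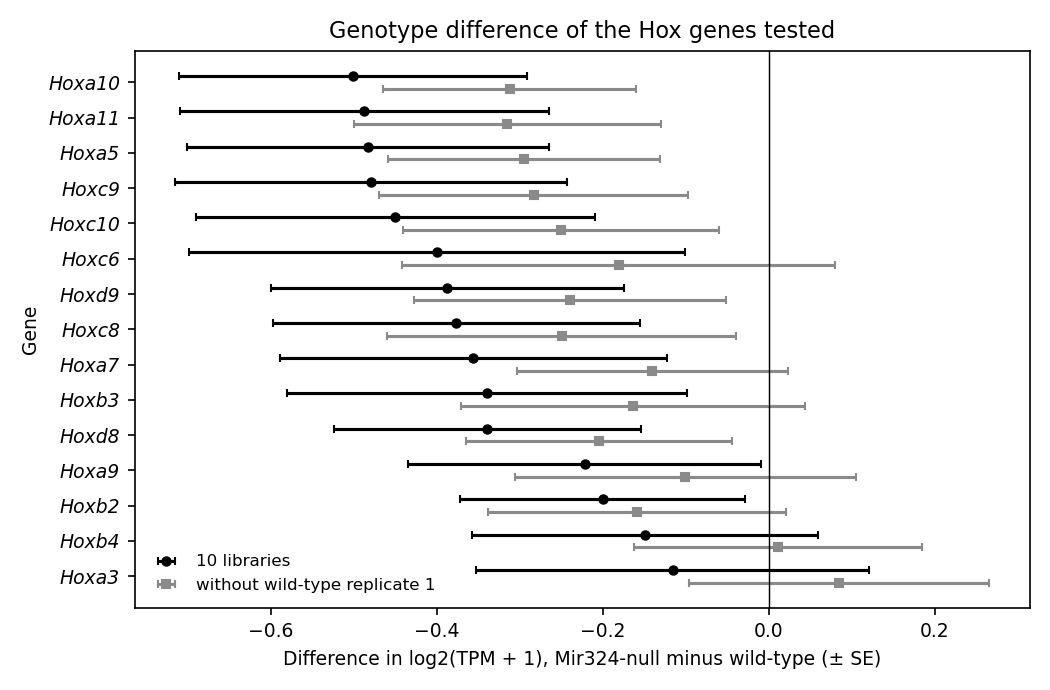
Difference in log2(TPM + 1) between Mir324-null and wild-type mice for the 15 tested Hox genes, with SE, from all 10 libraries and without wild-type replicate 1. All 15 estimates lie below 0 with 10 libraries, from -0.50 for Hoxa10 to -0.12 for Hoxa3, and most move toward 0 without that replicate.

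Summed over the 12 limb-type posterior genes, wild-type mice had 26.7, 12.3, 9.84, 15.8 and 10.2 TPM and null mice 7.11, 10.9, 11.5, 8.73 and 7.54 TPM. All 5 null mice lay below the wild-type mean, while wild-type replicates 3 and 5 lay inside the null range. The means were 14.9 ± 6.96 and 9.16 ± 1.98 TPM (SD, n = 5 each), a wild-type level 1.63 times the null one, or 1.31 times without wild-type replicate 1. Sums were described and not tested.

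The 18 marrow-type genes summed to 55.7, 29.2, 25.6, 28.9 and 27.3 TPM in wild-type knees and 23.3, 31.5, 27.9, 19.4 and 19.4 TPM in null knees. Here null replicate 2 was above every wild-type mouse but replicate 1. The Hoxa part was at 25.2 ± 10.4 TPM in wild-type knees and 17.8 ± 4.16 TPM in null knees, and the Hoxb part at 8.12 ± 2.37 and 6.52 ± 1.36 TPM. The wild-type to null ratio of the 18 genes was 1.37, or 1.14 without wild-type replicate 1.

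As a share of the summed Hox TPM, the ranges of the genotypes overlapped for every class and cluster. Limb-type posterior genes made up 23.8 ± 1.88% in wild-type and 21.7 ± 2.23% in null mice, and marrow-type genes 54.6 ± 4.66% and 57.4 ± 3.18%. With Hoxa9 and Hoxa10 counted as limb-type posterior instead, that class made up 47.7 ± 1.33% and 46.4 ± 2.53%. The 16 marrow-type genes left then made up 30.7 ± 2.48% and 32.7 ± 3.66%. Which class was the larger thus depended on where Hoxa9 and Hoxa10 were placed. Cluster A held 46.3 ± 3.53% and 46.6 ± 0.591%, and across all 10 mice its share ran only from 41.9 to 50.5%. With Hoxa9 and Hoxa10 kept in the marrow-type class, the ratio of limb-type posterior to marrow-type TPM was 0.44 ± 0.072 in wild-type and 0.38 ± 0.057 in null mice. Wild-type replicate 1, whose 39 genes summed to 106 TPM against 45.5 to 60.6 TPM in the other wild-type mice, was thus high across all clusters.

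Markers of cell types that the dissected cap could hold were summed in the same libraries. The 10 osteoblast and osteocyte markers all had a lower mean in null mice. Their summed level ran from 6035 to 10527 TPM in wild-type knees and from 2805 to 5341 TPM in null knees, with no overlap. Most of this sum was Bglap, Spp1 and Col1a1 (means 2586, 1395 and 1175 TPM), and for each of these the genotypes overlapped. Of the 10 markers only Phex separated the genotypes by itself, as 1.06% of all genes tested did with the null mice lower. A lower null mean was also found for all 6 B precursor, all 4 endothelial and all 3 kidney, gut and neural markers, where 60.0% of all genes tested had an estimate below 0. Other lists went the other way or were mixed. The null mean was the lower for 0 of 6 erythroid and 0 of 5 muscle markers. It was the lower for 3 of 8 blood stem and early progenitor markers and 3 of 5 granulocyte precursor markers. The 7 fibroblast markers summed to 2288 to 7275 TPM and 2017 to 3829 TPM. Most of that sum was Prg4, the joint lubricant, at 1335 to 5075 TPM over the 10 libraries, and the null mean was the lower for 4 of the 7 markers. Wild-type replicates 1 and 4 were the highest for the bone and fibroblast lists and for the limb-type posterior sum, while the order of the other libraries differed between them. The part of these cell types in the Hox differences was not tested.

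The 10 chondrocyte markers summed to 308 to 1000 TPM in wild-type knees and 280 to 543 TPM in null knees. The null mean was the lower for 8 of them. Of the list, 7 had a mean above 1 TPM, from 5.63 TPM for Cnmd to 109 TPM for Acan and 242 TPM for Comp, with Col2a1 at 75.2 TPM, and 3 (Col9a1, Matn1 and Matn3) were under 1 TPM. Blood cells were present throughout: the 6 erythroid markers summed to 74891 to 132577 TPM in wild-type knees and 106424 to 175553 TPM in null knees. Haemoglobin transcripts took 11.2 to 19.7% of the TPM in wild-type mice, lowest in replicate 1, and 15.8 to 26.1% in null mice.

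The 8 markers of blood stem and early progenitor cells, in which marrow-type Hox genes are known to act, summed to 127 to 135 TPM in wild-type knees and 124 to 171 TPM in null knees. Wild-type replicate 1, the highest for the marrow-type Hox sum, was at 131 TPM for these markers, inside the wild-type range. The highest library was null replicate 2, which was second for the marrow-type Hox sum. The 5 granulocyte precursor markers (1807 to 3562 and 1575 to 3654 TPM) and the 6 B precursor markers (211 to 296 and 124 to 285 TPM) overlapped between genotypes, as did the 4 endothelial markers (68.1 to 85.1 and 48.7 to 73.7 TPM). The 5 muscle markers were at 13.3 to 16.1 TPM in wild-type knees and reached 51.4 TPM in null replicate 2, and the 3 kidney, gut and neural markers stayed under 0.6 TPM.

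**Figure D4:**
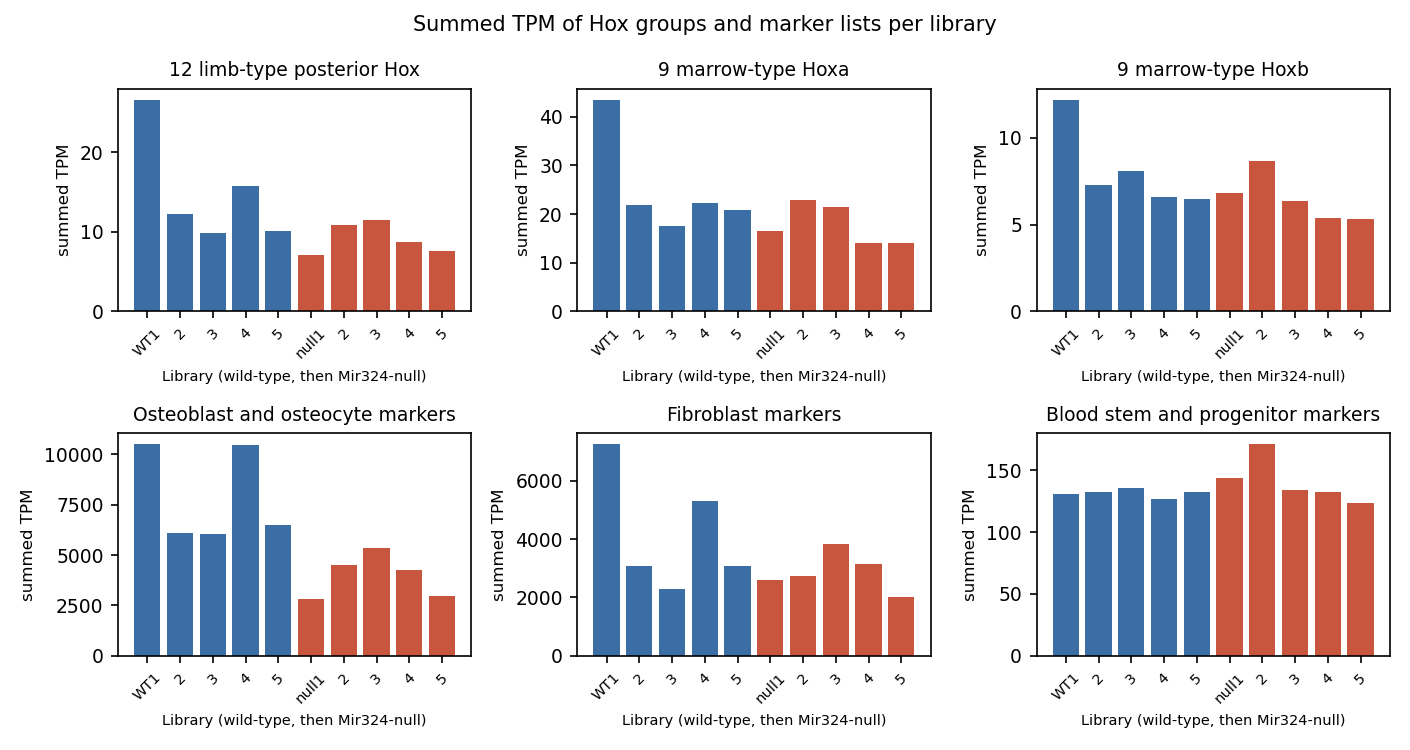
Summed TPM per library, bars from 0, for the limb-type posterior, marrow-type Hoxa and marrow-type Hoxb genes in the upper row and for 3 marker lists in the lower row, blue for wild-type and red for Mir324-null mice. Wild-type replicate 1 is the tallest bar in all panels but the blood progenitor one, where it stands at 131 TPM among values of 124 to 171 TPM.

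The transcripts behind the gene sums were not all coding. Of the Hoxa10 TPM, 65.7% fell on 1 processed transcript (ENSMUST00000126402), and 32.3% on coding transcripts. The coding transcript with the highest mean over the 10 libraries, ENSMUST00000121043, was at 3.20, 2.04, 0.774, 2.15 and 1.36 TPM in wild-type knees. In null knees it was at 0.347, 1.18, 0.752, 0.367 and 0.687 TPM. Wild-type replicate 3 lay among the null mice, and null replicate 2 was above it. The means were 1.90 ± 0.912 and 0.667 ± 0.342 TPM (SD, n = 5 each). The other coding transcript, ENSMUST00000125581, was at similar levels in both genotypes, 1.09 ± 0.438 TPM in wild-type knees and 1.04 ± 0.202 TPM in null knees. Single transcripts were not tested.

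For Hoxa9 the coding share was 48.9%, and for Hoxc8 a transcript with a retained intron held 57.1% of the TPM. The Hoxa9 transcript that carries the miR-324-5p match, ENSMUST00000048680, held 37.2% of the Hoxa9 TPM. That transcript was at 2.24 ± 0.758 TPM in wild-type knees and 1.63 ± 0.471 TPM in null knees, and was not tested. Hoxa7 had 66.8% in coding transcripts. Its nonsense-mediated decay transcript ENSMUST00000153280 was at 5.41 TPM in wild-type replicate 1 and listed at 0 in the other 4 wild-type mice, and it was at 0.866, 1.25, 3.96, 2.48 and 0 TPM in null knees. The main coding transcript of Hoxa7, ENSMUST00000048715, which carries the 4 miR-196 matches, was at 3.14 ± 0.718 TPM in wild-type knees and 1.34 ± 1.25 TPM in null knees. For Hoxa11, with 59.9% in its coding transcript, that transcript was listed at 0 in null replicate 2 and the processed one in 3 other null mice. Estimates thus switched between transcripts of 1 gene from mouse to mouse, and no count of reads was given to set an error on them.

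Reads of overlapping genes add to this limit, since the strand setting of the quantification was not stated. Antisense exons cover 52.9% of the exonic bases of Hoxb3 (Hoxb3os), 35.0% of those of Hoxa11 (Hoxa11os), 27.3% of Hoxb2 (Hoxb3os) and 20.4% of Hoxa7 (Hoxaas3). Hoxa3 is overlapped by 4 genes of the opposite strand, at 4.86 to 8.36% of its exonic bases each. How far the values of these 5 genes are affected is not known, because the share of bases covered does not give the size of an error in TPM. On the same strand, exons of Hoxc5 cover 8.70% of the exonic bases of Hoxc10. Exons of Gm28308 cover 8.01% of those of Hoxa3, and Mir196b covers 1.52% of those of Hoxa9. Hoxa5, Hoxb4 and Hoxd9 each had a single transcript in the table. The antisense and intergenic RNAs of the clusters were not analysed here.

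**Figure D5:**
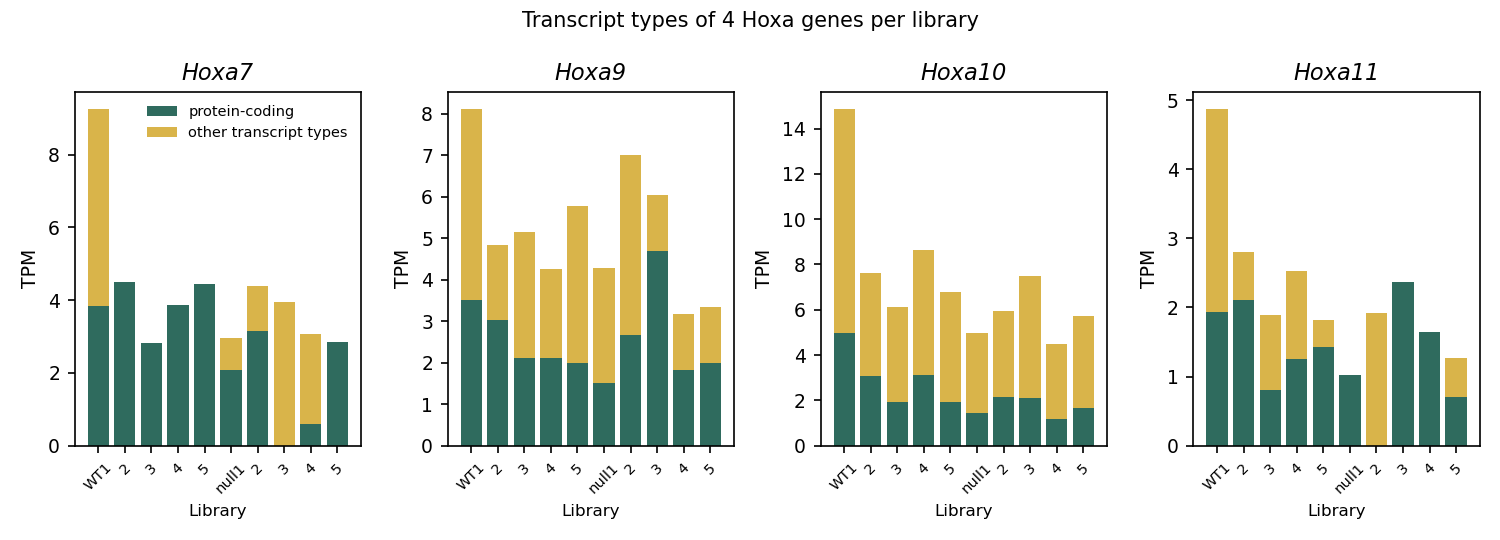
TPM per library of 4 Hoxa genes, bars from 0 stacked by transcript type, for 5 wild-type and then 5 Mir324-null mice. Transcripts of other than protein-coding type hold most of Hoxa10 in every mouse, while in Hoxa7 they are absent in 4 wild-type mice and 1 null mouse.

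Genes that work with the Hox proteins were read from the same fit. Hox proteins bind DNA together with Pbx and Meis cofactors, of which 9 were listed and 8 tested. None passed the adjusted test in limma, and at an unadjusted p under 0.05, 1 was higher and 0 lower in null mice, where 4.28% of all genes tested were higher and 7.3% lower. That gene was Meis1, a partner of Hoxa9 in blood progenitors, at 3.27, 3.79, 4.58, 3.41 and 3.83 TPM in wild-type knees and 5.71, 6.71, 3.83, 4.79 and 4.35 TPM in null knees. Wild-type replicate 1, the highest for most Hox genes, was the lowest for Meis1. The means were 3.78 ± 0.509 and 5.08 ± 1.14 TPM, a difference of 0.33 (SE 0.149, limma p = 0.0456, adjusted p = 0.425, exact permutation p = 0.0476), and without that replicate the limma p was 0.0876.

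Trithorax and Polycomb proteins keep Hox clusters active or silent, and all 14 listed genes were tested. Here 0 were higher and 2 lower at an unadjusted p under 0.05, beside 4.28% and 7.3% of all genes, and none passed the adjusted test in limma. Phc1, a Polycomb subunit, was at 10.5 ± 1.48 TPM in wild-type knees and 7.54 ± 1.22 TPM in null knees, a difference of -0.44 (SE 0.133, limma p = 0.00706, adjusted p = 0.316, exact permutation p = 0.0159). Bmi1, another subunit and a factor in blood stem cell renewal, was at 19.4 ± 2.42 and 15.0 ± 3.26 TPM, a difference of -0.36 (SE 0.149, limma p = 0.0314, adjusted p = 0.386, exact permutation p = 0.0714). The limma p without wild-type replicate 1 was 0.0653 for Bmi1 and 0.0167 for Phc1.

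Of 5 listed genes that set limb identity, 2 were tested, and neither passed the adjusted test in limma. Pitx1, which specifies the hindlimb, was at 8.93, 4.02, 2.94, 6.12 and 3.73 TPM in wild-type knees and 3.01, 5.55, 4.16, 4.35 and 3.62 TPM in null knees. It was highest in wild-type replicate 1, as the Hox genes were, and differed by -0.20 (exact permutation p = 0.50), or by -0.0030 without that mouse. Tbx4, its hindlimb target, had a mean of 0.599 TPM (0.225 to 1.40) and the forelimb gene Tbx5 one of 0.143 TPM (0.0433 to 0.333), while Isl1 was listed at 0 in all 10 libraries.

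Shox2, which shapes the upper limb segment, was at 16.9, 12, 7.46, 14.4 and 8.88 TPM in wild-type knees and 6.44, 8.81, 11, 7.09 and 5.87 TPM in null knees. Wild-type replicates 1, 4 and 2 were its highest libraries, the order also seen for Hoxc10 and for the limb-type posterior sum. The means were 11.9 ± 3.88 and 7.84 ± 2.08 TPM, a difference of -0.52 (SE 0.221, limma p = 0.0357, adjusted p = 0.398, exact permutation p = 0.0635). It was -0.39 without wild-type replicate 1, with a limma p of 0.0906.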

How the data were processed

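The authors deposited 1 table of TPM for 116912 mouse Ensembl transcripts in 10 libraries, made with kallisto per the submitters' processing notes (version not given in the sources used here). The submitters' processing notes also name DESeq2, with no role, and the build GRCh38, although the identifiers are of mouse. Each column summed to 1000000 TPM. Depth is unknown, so no counting interval was set.

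Transcripts were matched without version to GENCODE M21 (GRCm38). The 115440 matches were summed to 35705 genes, and the 1472 others held at most 0.356% of a library. The 13841 genes whose mean reached 1 TPM were tested on log2(TPM + 1), which understates changes of low genes, with limma 3.58.1 in R 4.3.3 (trend, two-sided, Benjamini-Hochberg over all genes, threshold 0.05), beside the exact permutation test. Code was tested on simulated data. The p-values measure the spread between mice, as each library is labelled as an individual mouse. The members and lists were chosen with earlier results of these data known. Values per library were given for the members tested, and full statistics for those with an unadjusted p under 0.05 (the 3 smallest). Of the partner genes, those with such a p, Meis1, Pitx1, Tbx4 and Tbx5 were named. Some genes are not reported here. Isl1 and other members' p-values were added after their values were seen. Alternatives were a pseudocount of 0.1, no filter, median ratio scaling, quantile normalization, rescaling without 12 haemoglobin genes, coding transcripts alone, a replicate block and leaving out each mouse. No batch was given in the labels.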

Additional observations from a re-analysis of the deposited data

Results flagged for a closer look

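Within 48 groups of 5 mice examined (the tested members, the partner genes named and the sums, in each genotype), 7 had a mouse far from the others by Dixon's ratio of the gap to the range, above its 95% critical value for 5 samples. Chance flags about 1 in 20 groups. Wild-type replicate 1 was that mouse in all 7. It had 14.9 TPM of Hoxa10 against 6.14 to 8.66 in the other wild-type mice (ratio 0.712), 4.34 TPM of Hoxa5 against 1.32 to 2.16 (0.722), and 9.25 TPM of Hoxa7 against 2.82 to 4.49 (0.741). It also had 2.98 TPM of Hoxa3 against 0.709 to 1.20 (0.783) and 4.87 TPM of Hoxb4 against 2.03 to 2.68 (0.770). The sum of all Hox genes, 106 TPM against 45.5 to 60.6, gave 0.750, and that of the marrow-type genes, 55.7 TPM against 25.6 to 29.2, gave 0.881. These sums hold the genes named before them.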

How the results depend on the processing

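The count of Hox genes lower in null mice at an unadjusted limma p under 0.05, 3 with all mice, was 1 without the filter on low values (Hoxa10), 0 after rescaling without haemoglobin genes, and 0 with the replicate number as a block. Leaving out each mouse gave 0 to 6: 0 without wild-type replicate 1 or 4 or null replicate 1, 4 or 5, and 2 when replicate 2 of the wild-type (Hoxa10 and Hoxc9) or of the null mice (Hoxa5 and Hoxa10) was dropped. Dropping null replicate 3 gave 3 (Hoxa10, Hoxa11 and Hoxc9), dropping wild-type replicate 5 gave 5 and dropping wild-type replicate 3 gave 6, where 9.79%, 7.65% and 8.72% of all genes were lower (4.48 to 9.79% on leaving out each mouse). With coding transcripts alone 13 members were fitted and the 3 were Hoxa5, Hoxa7 and Hoxa10, so Hoxa11 lost its call and Hoxa7 gained one. Of all genes in that fit 7.72% were lower. Genes with an adjusted p under 0.05 numbered 0 in all and 0 to 1 on leaving out each mouse. Without wild-type replicate 1, Hoxa3 turned to 0.084 and Hoxb4 to 0.011 (ranges on leaving out each mouse -0.22 to 0.084 and -0.23 to 0.011). The null minus wild-type difference of the limb-type posterior sum, -5.78 TPM, ranged from -7.06 to -2.85 TPM, and that of the marrow-type sum, -9.05 TPM, from -11.0 to -3.46 TPM, both nearest 0 without wild-type replicate 1. The cause of these shifts was not tested. Same-numbered mice did not deviate together (correlations -0.144 to 0.0564 over 5 pairs, 0 of 5 mice closest to their own number). Such correlations cannot show whether same-numbered mice shared a litter or a preparation, so whether the numbers pair them remains unknown. The block lowered the genes with an unadjusted p under 0.05 from 1603 to 1168. Among those 1603, 592 were higher and 1011 lower in null mice. The split was 875 and 888 with median ratio scaling, 884 and 929 with quantile normalization, and 1216 and 581 without haemoglobin genes. Depth limits the lowest genes to an unknown extent.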
